A study of Rattus norvegicus with 26 samples.

Results

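The collagen genes of the rat thoracic aorta were followed across 26 1-colour arrays. A probe was taken as a collagen probe when the accession printed on the array led to a rat symbol of the form Col, number, a, number, and 25 of 30367 probes outside the controls met this rule. They measured 18 of the 15168 named genes on the array, 7 of the fibrillar class, 2 of the basement membrane class and 9 of other classes. The reference table holds 44 such symbols, and the 26 for which no probe was matched were not analysed here. Of the 25 probes, 23 (17 genes) were well above background on at least 6 arrays and were tested. The 2 probes of Col23a1, a membrane-spanning collagen, were not: the brighter of them was well above background on 5 arrays and the other on 0.

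Aortas came from males of the SHR strain (spontaneously hypertensive rats), whose high blood pressure is inherited, and no normotensive or undosed group was analysed here. The animals were dosed by mouth for 4 weeks and killed at day 28. The groups were saline at 7.5 mL per kg (the model group, n = 8 arrays), the herbal preparation Songling Xuemaikang capsule (SXC) at a low dose of 236.25 mg per kg (n = 6), SXC at a high dose of 708.75 mg per kg (n = 6), and valsartan, a drug that blocks the type 1 receptor of angiotensin II, at 21.6 mg per kg (n = 6). Valsartan had 8 rats per the series text, of which 6 arrays were used here. RNA was extracted from each aorta separately, per the labels. No age of the rats was found in the labels.

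Collagens are extracellular proteins built of chains wound into a triple helix. Fibrillar collagens, above all types I and III, form the fibrils that bear load in the media and adventitia of the aorta, and type V starts and limits those fibrils. Type IV collagen forms the sheets of basement membrane beneath the endothelium and around each smooth muscle cell, while the other classes link fibrils, cells and basement membranes to each other. Smooth muscle cells and adventitial fibroblasts make most of the collagen of the vessel wall, and excess collagen is a known feature of the hypertensive artery.

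Promoter sequence from RefSeq (build GRCr8, 250 bases before to 50 after each start) was at hand for 13 of the 18 genes. A stretch from 2 of them is shown, that of Col1a2, a fibrillar chain called lower after both high-dose SXC and valsartan, as was Col5a1, and that of Col4a1, called higher after low-dose SXC, as was Col9a1. For Col1a2 the stretch is chr4:33518307-33518426, plus strand, from base 250 to base 131 before the start. For Col4a1 it is the whole interval of 76 bases, chr16:84885521-84885596, plus strand, between the starts of Col4a1 and of its head-to-head neighbour Col4a2, which had no matched probe. Capitals mark matches, on either strand, to TATAAA, to CCAAT and to GGGCGG.
Col1a2: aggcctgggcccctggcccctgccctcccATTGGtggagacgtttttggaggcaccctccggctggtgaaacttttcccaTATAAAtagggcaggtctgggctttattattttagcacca
Col4a1/Col4a2 interval: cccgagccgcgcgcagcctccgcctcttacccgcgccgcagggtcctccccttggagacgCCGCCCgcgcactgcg
The Col1a2 stretch holds TATAAA and, on the minus strand, CCAAT, and the interval holds GGGCGG on its minus strand. No 2 of these matches overlap. TATAAA occurred in 2 of the 13 collagen promoters (15.4%) and in 14.2% of all 33469 promoters, CCAAT in 3 (23.1%) and in 37.5%, and GGGCGG in 8 (61.5%) and in 33.1%. A match describes these letters only. Col6a2, Col9a1, Col3a1 and Col4a4 also have a collagen neighbour (Col6a1, Col19a1, Col5a2 and Col4a3) for which no probe was matched.

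Levels are given as the log2 signal of a probe minus the 75th percentile of its array, so that 1 unit is a 2-fold difference, and the level of a probe cannot be set against that of another probe. A difference was called when the adjusted p of limma's moderated test over all 23744 probes tested, with Benjamini-Hochberg adjustment, was under 0.05. In tissue RNA, fewer cells of a type and less RNA per cell cannot be told apart. All saline arrays were scanned on 1 day, 82 days after the last treated array, so that against saline the scan day and the treatment cannot be told apart, and the 3 comparisons with saline share the same 8 control arrays. The scanner detector ran at a low gain of 323 to 325 V for the 6 valsartan arrays and for high-dose arrays 3 to 6, and at 353 to 354 V for the remaining 16. Only the high-dose group held both gains, 2 arrays at the higher and 4 at the lower, scanned on different days. A fit with gain as a block takes the gain effect from these 6 arrays alone and applies it to valsartan. Its valsartan results are therefore not comparisons within 1 gain, and gain cannot be told apart from scan day in it. Its high-dose changes against saline or low-dose SXC rest on the 2 high-dose arrays at the higher gain. A fit within the arrays of the higher gain gives the same changes, so it is not a separate check of their size. The share of probes well above background was 28.7% to 79.3% on high-dose and 32.4% to 56.5% on valsartan arrays, against 67.3% to 76.2% on the saline and 70.0% to 77.0% on the low-dose arrays. Saline arrays 1 and 5, 2 and 6, and 3 and 7 deviated together from the mean of their slide (r = 0.71, 0.66 and 0.87 across probes), and the independent saline samples may be fewer than 8.

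The summed level of macrophage (6 of 6 listed genes measured), endothelial (6 of 8) and red cell markers did not overlap between saline and treated arrays. Of the 6 endothelial markers 5 were called lower in each comparison with saline and Cdh5 was called higher. For red cells (4 of 4 listed genes measured, all 4 called lower in each comparison with saline) it was 7.43 to 8.71 on saline arrays and 1.78 to 4.74 on treated arrays. For adventitial fibroblasts (5 of 6 listed genes measured, 3 called lower in each comparison) it was 4.61 to 6.21 on saline, 3.94 to 4.21 on low-dose, 3.47 to 4.20 on high-dose and 3.70 to 4.45 on valsartan arrays. Smooth muscle markers (6 of 6) summed to 5.71 to 7.67, 6.79 to 7.40, 6.60 to 7.16 and 6.56 to 6.99 in the same order. The part of these shifts in the collagen results below was not tested.

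Valsartan was compared with saline as the study's reference drug. Among fibrillar collagens Col1a2, Col3a1, Col5a1 and Col11a2 fell and Col2a1 rose; the sign of Col11a2 turned with normexp. Of the 23 collagen probes, 3 were called higher and 9 lower, where 58.4% of all probes tested were called (33.2% higher, 25.2% lower). Of the 9 fibrillar probes 5 were lower and 1 was higher, of the 3 basement membrane probes 1 was lower, and of the 11 probes of other classes 3 were lower and 2 higher. The median log2 change was -0.49 for fibrillar, -0.29 for basement membrane and -0.60 for other probes, against 0.20 for all probes tested. The share of fibrillar probes called was near that of all probes. It was 1 of 9 with gain as a block (13.7% of all probes) and 3 of 9 with slide as a random block (45.5%).

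High-dose SXC against saline gave 4 collagen probes higher and 6 lower, where 57.1% of all probes were called (35.7% higher, 21.4% lower). Col1a2, Col5a1, Col6a2 and Col14a1 fell, and Col2a1, Col9a1 and Col18a1 rose. By class, 1 fibrillar probe was higher and 2 lower, 1 basement membrane probe was lower, and 3 probes of other classes were higher and 3 lower. The median change was -0.18 for fibrillar, 0.16 for basement membrane and -0.58 for other probes, against 0.25 for all probes.

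Low-dose SXC against saline gave 2 collagen probes higher and 3 lower, where 39.6% of all probes were called (22.5% higher, 17.1% lower). Col4a1 and Col9a1 rose and Col7a1 fell. Of the 9 fibrillar probes 0 were called by limma, and 1 had an unadjusted p under 0.05. The median change was -0.17 for fibrillar, 0.16 for basement membrane and -0.26 for other probes, against 0.09 for all probes.

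How many collagen probes rose and how many fell depended on the scaling. Quantile normalisation moved the median change of all probes from 0.25 to -0.23 for high-dose SXC, from 0.09 to 0.01 for low-dose SXC and from 0.20 to -0.30 for valsartan, and the normexp background correction moved it to 0.55, 0.24 and 0.70. The collagen split for high-dose SXC was 3 higher and 10 lower after quantile normalisation, 9 higher and 6 lower with normexp, and 3 higher and 11 lower in the authors' deposited values. For valsartan it was 2 and 13, 8 and 8, and 2 and 12, and for low-dose SXC 2 and 5, 2 and 1, and 2 and 6. Among all called probes the share that was higher moved from 62.5% to 41.6% (quantile) and 76.7% (normexp) for high-dose SXC, and from 56.9% to 38.0% and 78.2% for valsartan. Relative to the median of all probes, of the 23 collagen probes 16 were below it for high-dose SXC, 15 for low-dose SXC and 17 for valsartan.

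**Figure D1:**
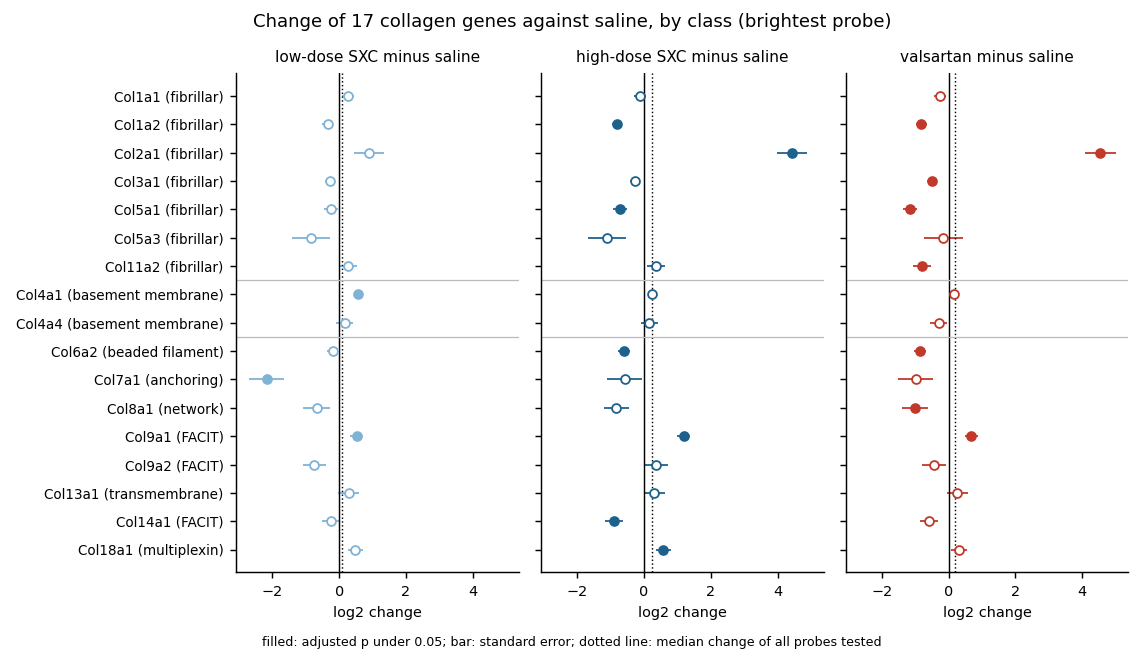
Log2 change of 17 collagen genes against saline, from the brightest probe of each gene, in 3 panels for low-dose SXC, high-dose SXC and valsartan. Points are fitted differences with their standard error, filled where the adjusted p was under 0.05, and the dotted line is the median change of all probes tested. Col2a1 stands at 4.44 and 4.54 in the high-dose and valsartan panels, and Col1a2, Col5a1 and Col6a2 lie below 0 in all 3 panels.

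Type I collagen is the bulk fibrillar collagen of the aortic wall, made of chains encoded by Col1a1 and Col1a2. The level of Col1a2 was 6.62 to 7.28 on saline arrays (median 7.08), 6.37 to 6.94 on low-dose arrays (median 6.58), 5.54 to 6.77 on high-dose arrays (median 6.12) and 5.94 to 6.35 on valsartan arrays (median 6.22). All valsartan arrays were below all saline arrays, while 1 high-dose array lay within the saline range. Against saline Col1a2 fell by 0.81 ± 0.15 (SE) on the log2 scale with high-dose SXC (adjusted p = 8.9e-05) and by 0.81 ± 0.15 with valsartan (adjusted p = 8e-05), and the low-dose change was -0.35 ± 0.15 (adjusted p = 0.0731). Among the high-dose arrays the 2 at the higher gain read 6.53 and 6.77 and the 4 at the lower gain 5.54 to 6.18. When gain was a block the changes were -0.33 (high dose, adjusted p = 0.199) and -0.10 (valsartan, adjusted p = 0.841), and neither was called.

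Col1a1 did not follow Col1a2 in the test. Its brighter probe had levels of 5.44 to 6.72 on saline arrays (median 6.59), 6.47 to 6.69 on low-dose arrays (median 6.59), 5.97 to 6.66 on high-dose arrays (median 6.10) and 5.75 to 6.33 on valsartan arrays (median 6.17). The saline range spanned the other groups because of saline arrays 3 and 7, at 5.65 and 5.44. The log2 changes against saline were -0.12 ± 0.18 (SE) for high-dose SXC, 0.25 ± 0.18 for low-dose SXC and -0.26 ± 0.18 for valsartan, with adjusted p = 0.598, 0.276 and 0.217. Its dimmer probe was called lower with valsartan (-0.73 ± 0.25, adjusted p = 0.0142). Without saline arrays 3 and 7, an alternative chosen after the data were seen, the brighter probe was also called lower with valsartan (-0.52, adjusted p = 0.000926) and with high-dose SXC (-0.38, adjusted p = 0.0114). Leaving out the lowest saline arrays raises the saline mean, so lower calls were favoured in advance. The same holds in the genes below wherever these arrays read lowest.

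Type III collagen, the product of Col3a1, is the more extensible fibril partner of type I in arteries. Its level was 5.76 to 6.82 on saline arrays (median 6.62), 5.94 to 6.40 on low-dose arrays (median 6.23), 6.07 to 6.33 on high-dose arrays (median 6.17) and 5.66 to 6.29 on valsartan arrays (median 5.92). The other 6 saline arrays stood above every treated array, while saline arrays 3 and 7 read 5.89 and 5.76. Col3a1 fell by 0.49 ± 0.15 (SE) with valsartan (adjusted p = 0.00788), a call lost with gain as a block (-0.34, adjusted p = 0.498). The changes with high-dose and low-dose SXC were -0.28 ± 0.15 (adjusted p = 0.12) and -0.27 ± 0.15 (adjusted p = 0.159). Without saline arrays 3 and 7, the lowest of saline here, both were called, at -0.48 each (adjusted p = 0.000802 and 0.00148), calls that this choice favoured.

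Col5a1 encodes the chain of type V collagen that starts type I fibrils. Its level was -1.31 to 0.30 on saline arrays (median -0.13), -0.88 to -0.36 on low-dose arrays (median -0.57), -1.44 to -0.66 on high-dose arrays (median -1.06) and -1.67 to -1.37 on valsartan arrays (median -1.49). The groups stepped down in that order by their medians, and all valsartan arrays were below all saline and all low-dose arrays. Col5a1 fell 2.24-fold with valsartan (log2 change -1.17 ± 0.20, SE, adjusted p = 2.98e-05) and 1.65-fold with high-dose SXC (-0.72 ± 0.20, adjusted p = 0.0039). The low-dose change was -0.25 ± 0.20 (adjusted p = 0.343), which without saline arrays 3 and 7 became -0.57 (adjusted p = 0.00149). As in Col1a2, gain as a block ended both calls: the valsartan change was -0.79 (adjusted p = 0.176) and the high-dose change -0.48 (adjusted p = 0.243).

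**Figure D2:**
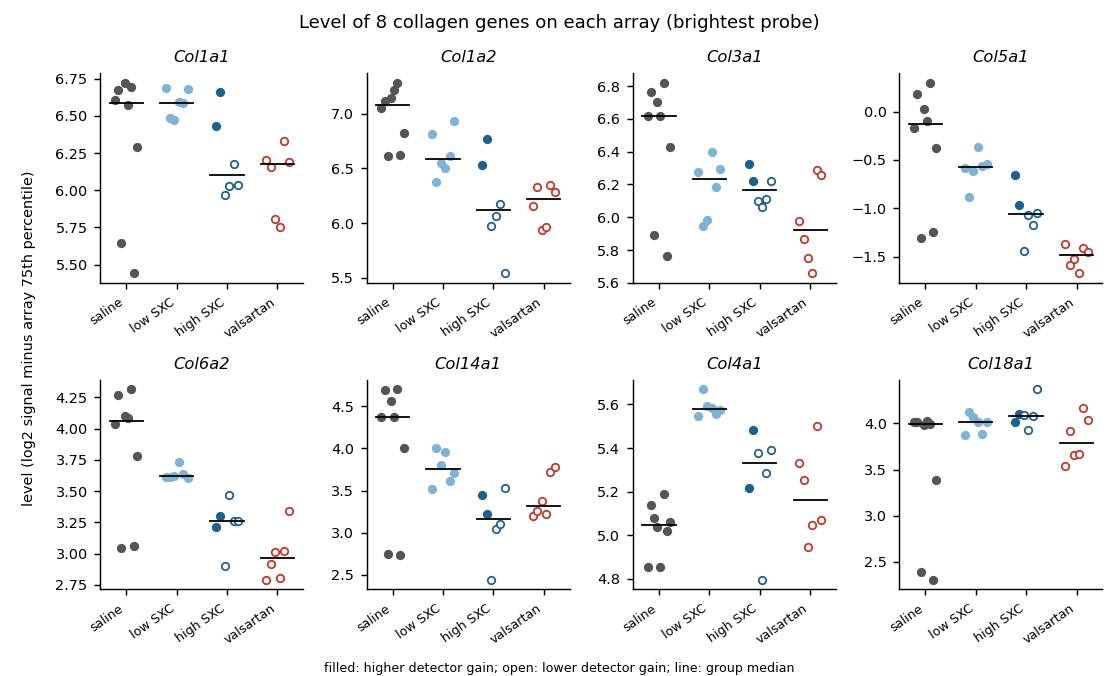
Level of 8 collagen genes on each of the 26 arrays (log2 signal minus the array's 75th percentile, brightest probe), by group. Points are arrays, filled at the higher and open at the lower detector gain, and lines are group medians. Saline arrays 3 and 7 are the lowest saline points for all genes shown except Col4a1, and low-dose Col4a1 lies above every saline array.

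The remaining fibrillar genes are known from cartilage or are minor chains. Col2a1, the chain of type II collagen and the main fibril protein of cartilage, had levels of -4.45 to -3.71 on saline arrays (median -3.89), -3.61 to -1.95 on low-dose arrays (median -3.36), -2.08 to 1.73 on high-dose arrays (median 1.32) and 0.01 to 1.38 on valsartan arrays (median 0.43). The probe was well above background on all 26 arrays, and all 18 treated arrays were above all saline arrays. Col2a1 rose 21.7-fold with high-dose SXC (log2 change 4.44 ± 0.45, SE, adjusted p = 1.31e-08) and 23.3-fold with valsartan (4.54 ± 0.45, adjusted p = 7.98e-09). The low-dose change was 0.89 ± 0.45 (adjusted p = 0.123), and with gain as a block it was called (adjusted p = 0.00819).

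Within the high-dose group the level of Col2a1 differed between the gains, where gain and scan day cannot be told apart. The 2 high-dose arrays at the higher gain read -2.08 and -0.995, and the 4 at the lower gain 1.30 to 1.73. Low-dose arrays were all at the higher gain, and arrays 1 and 6, of scan day 1, read -2.51 and -1.95. The other low-dose arrays, of scan day 2, read -3.61 to -3.23. With gain as a block the change against saline was 2.41 for high-dose SXC (adjusted p = 6.76e-05) and 1.503 for valsartan (adjusted p = 0.0445). Both remained called and were smaller by more than 1.5-fold. Of 5 cartilage markers measured, Comp was well above background on 22 arrays, Matn1 on 13, Hapln1 on 5, Acan on 3 and Cnmd on 0. Their summed level was -2.70 to -1.60 on saline, -2.95 to -2.12 on low-dose, -2.21 to -0.69 on high-dose and -2.75 to 0.82 on valsartan arrays. Acan reached 0.08 on valsartan arrays, where its median was -5.25, and Hapln1 reached -1.29, with a median of -5.13. Of the cartilage markers 2 were tested. Against saline 0 were called higher by limma and 1 was called lower, with valsartan.

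Col11a2, a chain of type XI collagen of thin cartilage fibrils, fell with valsartan by 0.80 ± 0.27 (SE, adjusted p = 0.0134) at its brighter probe. Its level was -4.09 to -2.55 on saline arrays (median -3.51), -3.51 to -2.52 on low-dose arrays (median -3.21), -3.59 to -2.49 on high-dose arrays (median -3.09) and -5.08 to -3.33 on valsartan arrays (median -4.33). Only 1 of the valsartan arrays was well above background for it, the groups overlapped, and with normexp the sign turned (0.63, adjusted p = 0.000672). The dimmer probe changed by 0.28 ± 0.47 (adjusted p = 0.63) with valsartan.

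Col5a3, a minor type V chain, was not called in any comparison. Its level was -2.73 to -1.33 on saline arrays (median -1.64), -3.25 to -1.27 on low-dose arrays (median -3.09), -3.25 to -2.62 on high-dose arrays (median -3.00) and -3.68 to 1.26 on valsartan arrays (median -3.07). Valsartan arrays 1 and 2 stood far above the other valsartan arrays. All groups share 1 estimate of the spread, so these arrays also widen the SE of the SXC changes. The SD was 2.15 on valsartan, 0.23 on high-dose, 0.76 on low-dose and 0.53 on saline arrays. The log2 changes against saline were -1.10 ± 0.57 (SE, high dose), -0.86 ± 0.57 (low dose) and -0.15 ± 0.57 (valsartan).

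**Figure D3:**
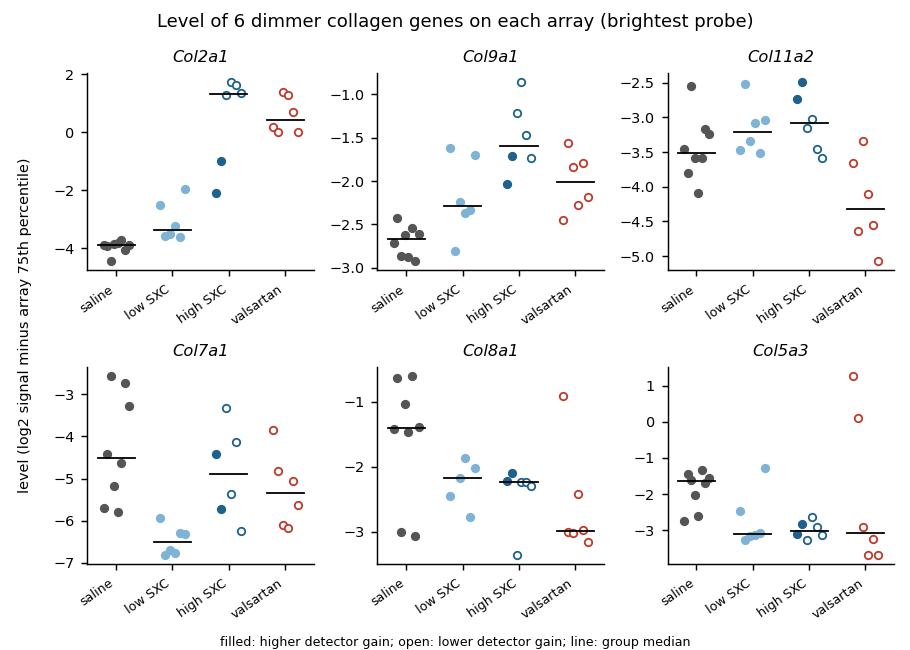
Level of 6 dimmer collagen genes on each array (log2 signal minus the array's 75th percentile, brightest probe), by group. Points are arrays, filled at the higher and open at the lower detector gain, and lines are group medians. The open high-dose points of Col2a1 lie at 1.30 to 1.73 and the filled ones at -2.08 and -0.995.

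Basement membrane collagen was measured through Col4a1, the widespread type IV chain, and Col4a4, a chain known from the kidney filter. The brighter Col4a1 probe had levels of 4.85 to 5.19 on saline arrays (median 5.05), 5.55 to 5.67 on low-dose arrays (median 5.58), 4.80 to 5.48 on high-dose arrays (median 5.33) and 4.95 to 5.50 on valsartan arrays (median 5.16). All 6 low-dose arrays were above all 20 other arrays. Col4a1 rose 1.47-fold with low-dose SXC (log2 change 0.56 ± 0.10, SE, adjusted p = 0.000111), and saline and low-dose arrays were scanned at the same gain. The rise was 0.28 after quantile normalisation (adjusted p = 0.0443). With high-dose SXC the change was 0.23 ± 0.10 (adjusted p = 0.0613) and with valsartan 0.16 ± 0.10 (adjusted p = 0.179). Saline arrays 3 and 7 read 5.08 and 5.02, within the other saline arrays.

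The dimmer Col4a1 probe moved the other way. Its level was -2.73 to -2.19 on saline arrays (median -2.54), -3.17 to -2.60 on low-dose arrays (median -2.98), -4.29 to -3.23 on high-dose arrays (median -3.53) and -5.05 to 0.08 on valsartan arrays (median -4.07). It was well above background on all saline and low-dose arrays, 3 of the high-dose and 1 of the valsartan arrays. The low-dose change was -0.43 ± 0.47 (SE, adjusted p = 0.495) and was not called, unlike the low-dose rise of the brighter probe. Its SE comes from the spread of all groups, and the SD was 1.85 on valsartan arrays against 0.20 on low-dose and 0.18 on saline arrays. The dimmer probe was called lower with high-dose SXC (-1.11 ± 0.47, adjusted p = 0.0446) and valsartan (-1.08 ± 0.47, adjusted p = 0.0494). With normexp its valsartan change was 0.32 (adjusted p = 0.267). Col4a4 was well above background on 0 of the valsartan arrays and was not called in any comparison, with changes against saline of 0.16 ± 0.25 (SE) for each SXC dose and -0.29 ± 0.25 for valsartan.

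Col6a2 encodes a chain of type VI collagen, whose beaded filaments tie cells to the surrounding fibrils. Its level was 3.04 to 4.31 on saline arrays (median 4.06), 3.61 to 3.73 on low-dose arrays (median 3.62), 2.90 to 3.47 on high-dose arrays (median 3.26) and 2.79 to 3.34 on valsartan arrays (median 2.97). Low-dose arrays lay above all high-dose and valsartan arrays and below 6 of the saline arrays. Col6a2 fell by 0.85 ± 0.17 (SE) with valsartan (adjusted p = 0.000123) and by 0.60 ± 0.17 with high-dose SXC (adjusted p = 0.00382), and the low-dose change was -0.20 ± 0.17 (adjusted p = 0.376). When gain was a block the sizes were close to these (-0.82 and -0.58) and the calls were lost (adjusted p = 0.0933 and 0.0893). Without saline arrays 3 and 7 the low-dose change was -0.46 (adjusted p = 0.00137).

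Col14a1 and the type IX genes are FACITs, collagens that sit on the surface of fibrils. The brighter Col14a1 probe had levels of 2.73 to 4.70 on saline arrays (median 4.37), 3.52 to 4.00 on low-dose arrays (median 3.75), 2.44 to 3.53 on high-dose arrays (median 3.16) and 3.20 to 3.78 on valsartan arrays (median 3.32). All saline arrays but 3 and 7, at 2.75 and 2.73, stood above every treated array. Col14a1 fell by 0.89 ± 0.27 (SE) with high-dose SXC (adjusted p = 0.00595), and the changes with valsartan and low-dose SXC were -0.60 ± 0.27 (adjusted p = 0.0561) and -0.26 ± 0.27 (adjusted p = 0.472). Under the gain block the high-dose change was -0.69 (adjusted p = 0.201).

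The dimmer Col14a1 probe was called lower in all 3 treated groups. Its level was -2.41 to -0.44 on saline arrays (median -0.99), -2.98 to -2.40 on low-dose arrays (median -2.82), -3.85 to -2.97 on high-dose arrays (median -3.22) and -4.45 to -3.72 on valsartan arrays (median -4.21). High-dose and valsartan arrays were all below all saline arrays, and the probe was well above background on 0 of the valsartan arrays. It was at least 3.76-fold lower with valsartan than with saline (adjusted p = 1.12e-09), a bound taken from the dimmest signal well above background on each array. The log2 change was -2.13 ± 0.26 (SE) with high-dose SXC (adjusted p = 2.2e-07) and -1.62 ± 0.26 with low-dose SXC (adjusted p = 2.07e-05).

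Col9a1, a chain of the cartilage FACIT type IX, rose in all 3 treated groups at its brightest probe. Its level was -2.92 to -2.43 on saline arrays (median -2.67), -2.80 to -1.62 on low-dose arrays (median -2.29), -2.03 to -0.86 on high-dose arrays (median -1.59) and -2.45 to -1.57 on valsartan arrays (median -2.01). High-dose arrays were all above all saline arrays, and the other treated groups overlapped saline. The changes against saline were 1.19 ± 0.20 (SE) for high-dose SXC (adjusted p = 1.32e-05), 0.52 ± 0.20 for low-dose SXC (adjusted p = 0.0361) and 0.68 ± 0.20 for valsartan (adjusted p = 0.00454). With gain as a block they were 0.83 (adjusted p = 0.0257), 0.52 (adjusted p = 0.026) and 0.13 (adjusted p = 0.865). The low-dose call was lost without saline arrays 3 and 7 (0.46, adjusted p = 0.0951).

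The second Col9a1 probe went the other way and was called lower with low-dose SXC (-1.58 ± 0.52, SE, adjusted p = 0.0166). The third had the signs of the brightest (1.54 ± 0.55 with high-dose SXC, adjusted p = 0.0198, and 1.55 ± 0.55 with valsartan, adjusted p = 0.0193). It was well above background on 4 of the saline, 2 of the high-dose and 0 of the valsartan arrays, so that its differences are between signals mostly at background. The second probe too was well above background on 0 of the valsartan arrays. Col9a2, another type IX chain, was not called against saline, with changes of 0.37 ± 0.35 (SE) at the high dose, -0.75 ± 0.35 at the low dose and -0.44 ± 0.35 with valsartan.

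Col18a1 encodes a basement membrane proteoglycan collagen from which endostatin is cut. Its level was 2.30 to 4.03 on saline arrays (median 3.99), 3.87 to 4.12 on low-dose arrays (median 4.02), 3.93 to 4.37 on high-dose arrays (median 4.08) and 3.54 to 4.16 on valsartan arrays (median 3.79). The saline median lay within the range of each treated group, and saline arrays 3 and 7 stood far below at 2.39 and 2.30. Col18a1 was called higher with high-dose SXC (0.58 ± 0.23, SE, adjusted p = 0.0329). Without saline arrays 3 and 7 the change was 0.20 (adjusted p = 0.17).

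Col8a1 encodes a short-chain network collagen of vascular cells. Its level was -3.07 to -0.60 on saline arrays (median -1.40), -2.78 to -1.86 on 5 low-dose arrays (median -2.17, the spot of array 2 having been marked an outlier), -3.36 to -2.09 on high-dose arrays (median -2.24) and -3.16 to -0.92 on valsartan arrays (median -3.00). All saline arrays but 3 and 7 stood above all treated arrays except valsartan array 1. Col8a1 fell 2.01-fold with valsartan (SE of the log2 change 0.38, adjusted p = 0.0269), a call lost after quantile normalisation (-1.25, adjusted p = 0.0843), with normexp (-0.35, adjusted p = 0.267) and with gain as a block (-0.62, adjusted p = 0.643). The changes with high-dose and low-dose SXC were -0.83 ± 0.38 (adjusted p = 0.0667) and -0.68 ± 0.40 (adjusted p = 0.19), and both were called without saline arrays 3 and 7 (-1.31 and -1.16).

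Col7a1, the chain of the anchoring fibrils known from skin, was well above background on all 8 saline arrays, 1 low-dose array, 1 high-dose array and 0 valsartan arrays. Its level was -5.80 to -2.57 on saline arrays (median -4.52), -6.81 to -5.93 on low-dose arrays (median -6.51), -6.23 to -3.33 on high-dose arrays (median -4.90) and -6.17 to -3.85 on valsartan arrays (median -5.34). Low-dose arrays lay below all saline arrays, and saline arrays 3 and 7 were the highest of all 26. Col7a1 was called lower with low-dose SXC (log2 change -2.18 ± 0.52, SE, adjusted p = 0.00162), a difference from a group mostly at background, whose size is therefore not measured. With normexp the change was -0.47 (adjusted p = 0.172). The membrane-spanning Col13a1 was not called in any comparison (against saline 0.31 ± 0.31, SE, at the high dose, 0.29 ± 0.31 at the low dose and 0.26 ± 0.31 with valsartan) and was well above background on 0 of the valsartan arrays.

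Saline arrays 3 and 7 stood apart from the other 6 in most collagens. Both arrays were below all 6 others in 13 of the 23 probes, above all 6 in 3 and neither in 7. The same count was not made over all probes, across which these 2 arrays deviated together from their slide means (r = 0.87). Whether their standing apart is particular to collagens therefore cannot be told. Their mean minus that of the other 6 was -1.94 for Col8a1, -1.71 for Col14a1, -1.05 for Col1a1 and -0.49 for Col1a2 on the log2 scale. It was 2.18 for Col7a1 and 0.03 for Col4a1. On these arrays white fat markers (5 of 6 measured) summed to 7.41 and 7.31, against 3.08 to 6.65 on the other saline arrays and 1.67 to 4.45 on treated arrays. Smooth muscle markers summed to 6.60 and 5.71 there and to 6.90 to 7.67 on the other saline arrays. Adventitial fibroblast markers summed to 4.61 and 4.62 against 5.58 to 6.21, red cell markers to 7.43 and 7.44 against 8.30 to 8.71, and Schwann cell markers (4 of 4) to 2.03 and 2.01 against -1.68 to 1.21. Without both arrays 11 collagen probes were called for high-dose SXC (2 higher, 9 lower), 10 for low-dose SXC (1 higher, 9 lower) and 11 for valsartan (2 higher, 9 lower), where 55.8%, 37.6% and 56.8% of all probes were called. Since both arrays read low in most collagen probes, leaving them out favours lower calls, and these counts are not added support. The part of these cell types in the collagen levels of these arrays was not tested.

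**Figure D4:**
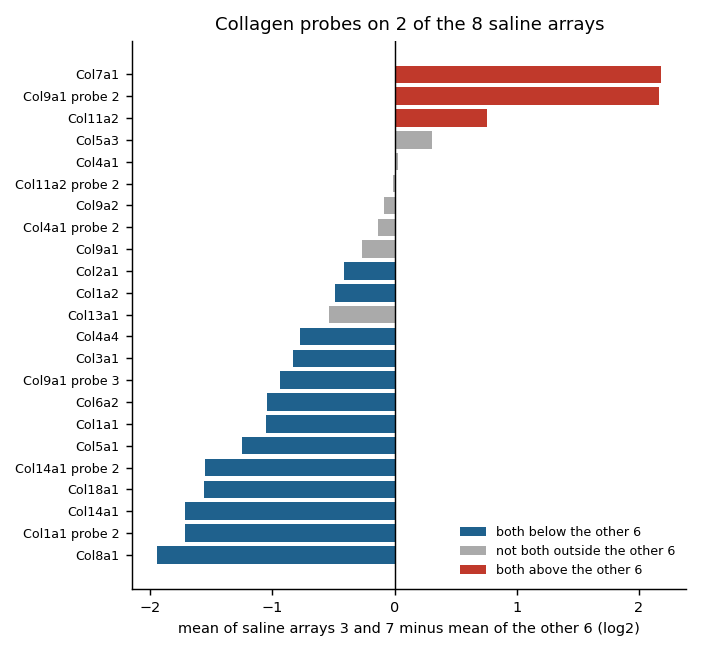
Mean level of saline arrays 3 and 7 minus the mean of the other 6 saline arrays (log2) for each of the 23 collagen probes tested, coloured by whether both arrays lay below, above or not both outside the other 6. Bars run from -1.94 for Col8a1 to 2.18 for Col7a1, with Col4a1 at 0.03.

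Among arrays of a group, Col1a1 varied together with other collagens mainly in saline. Over the 8 saline arrays its correlation with the 21 probes of other genes had a median of 0.78 and was over 0.9 for 9 of them, among them Col3a1 (0.99), Col14a1 (0.99), Col18a1 (0.99), Col6a2 (0.98), Col5a1 (0.97) and Col1a2 (0.94), and it was -0.85 for Col7a1. Over the 18 treated arrays, as deviations from group means, the median was 0.21, with the highest value for Col1a2 (0.84). Values of an array share its scaling, depth and tissue, and saline arrays 3 and 7 are part of the first set, so these correlations are descriptions only.

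High-dose was compared with low-dose SXC to ask what the dose changed. Of 23 collagen probes, 4 were called higher and 2 lower, where 22.2% of all probes were called (16.8% higher, 5.39% lower). Col2a1 (3.55 ± 0.48, SE, adjusted p = 0.000186), Col9a1 (0.67 ± 0.21, adjusted p = 0.0232) and Col9a2 (1.12 ± 0.38, adjusted p = 0.0337) were higher at the high dose. Col9a2 was well above background on all low-dose arrays but on only 3 of the high-dose arrays. Col7a1 was called higher too (adjusted p = 0.0408), from signals well above background on 1 array of each dose. The sign of Col9a1 turned with scan day as a block or within scan day 1 (-0.21), and Col9a2 was not called after quantile normalisation (0.15, adjusted p = 0.772). Col1a2 (-0.46 ± 0.17, adjusted p = 0.0484) and Col4a1 (-0.33 ± 0.11, adjusted p = 0.0339) were lower. With gain as a block or within the arrays of the higher gain 0 were called by limma, with 1 and 2 at an unadjusted p under 0.05, and the change of Col1a2 was 0.017 in both. In both of these fits 0 of all 23744 probes were called. Both take the high dose from its 2 arrays at the higher gain, so they are not separate checks. After quantile normalisation 1 was called higher (0 lower), and in the authors' deposited values 1 higher and 2 lower. Of all probes 15.4% and 15.5% were called there. The changes of Col1a1 (-0.37 ± 0.19), Col3a1 (-0.01 ± 0.16) and Col5a1 (-0.47 ± 0.22) were not called (adjusted p = 0.17, 0.988 and 0.124).

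Valsartan was compared with low-dose SXC in arrays that differ wholly in detector gain. Of 23 probes 1 was higher and 6 were lower, where 25.1% of all probes were called (13.6% higher, 11.5% lower), and with normexp 9 were higher and 7 lower. Lower with valsartan were Col5a1 (-0.91 ± 0.22, SE, adjusted p = 0.00399), Col6a2 (-0.66 ± 0.18, adjusted p = 0.00992), Col1a2 (-0.46 ± 0.17, adjusted p = 0.0418), Col4a1 (-0.40 ± 0.11, adjusted p = 0.0112) and Col11a2 (-1.07 ± 0.29, adjusted p = 0.0086). Col2a1 was higher (3.66 ± 0.48, adjusted p = 2.29e-05), and with scan day as a block the change was -0.034. Valsartan and low-dose arrays shared no scan day, so that fit links them only through high-dose arrays and is not a comparison within a day. The groups overlapped for Col11a2 and not for the other 5 genes. How often these groups did not overlap over all probes was not counted. The sign of Col11a2 turned with normexp (0.29, adjusted p = 0.128). The dimmer Col14a1 probe, well above background on 0 of the valsartan arrays, was at least 1.22-fold lower (adjusted p = 0.0012). Col1a1 (-0.51 ± 0.19, adjusted p = 0.0503) and Col3a1 (-0.21 ± 0.16, adjusted p = 0.345) were not called. With gain as a block 0 of the 23 were called by limma, with 0 at an unadjusted p under 0.05, where 3 of all 23744 probes were called (0.0126%), and the change of Col1a2 turned to 0.25.

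Valsartan and high-dose SXC differed in 1 of 23 probes, where 1.37% of all probes were called (0.265% higher, 1.11% lower). Col11a2 was called lower with valsartan (-1.15 ± 0.29, SE, adjusted p = 0.0423), on arrays of which 1 of 6 was well above background for it, and among arrays at the lower gain the change was -0.92 (adjusted p = 0.278). The differences for Col1a1 (-0.14 ± 0.19), Col1a2 (-0.01 ± 0.17), Col3a1 (-0.21 ± 0.16), Col4a1 (-0.07 ± 0.11), Col5a1 (-0.44 ± 0.22) and Col2a1 (0.11 ± 0.48) were not called, which does not show that the treatments act alike.

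The genes that modify, fold, cut and bind collagen were read from a list of 35, of which 27 were measured and tested. Against saline, 10 were higher and 7 lower with high-dose SXC, 7 higher and 5 lower with low-dose SXC, and 9 higher and 9 lower with valsartan, where 57.1%, 39.6% and 58.4% of all probes were called. With gain as a block 5 were called for high-dose SXC, 12 for low-dose SXC and 4 for valsartan, where 27.4%, 42.1% and 13.7% of all probes were. The median change of the list was 0.14, -0.02 and -0.01, against 0.25, 0.09 and 0.20 for all probes. In all 3 comparisons P4ha1, a catalytic subunit of prolyl 4-hydroxylase, fell (-1.17 ± 0.19 at the high dose, -0.80 ± 0.19 at the low dose and -1.25 ± 0.19 with valsartan, SE). In the same order, so did Colgalt1, which puts galactose on collagen (-0.96 ± 0.16, -0.65 ± 0.16 and -0.96 ± 0.16), and Itgb1, the shared beta subunit of collagen-binding integrins (-1.47 ± 0.23, -1.07 ± 0.23 and -1.46 ± 0.23). P3h1, a prolyl 3-hydroxylase, rose (0.64 ± 0.13, 0.75 ± 0.13 and 0.51 ± 0.13), as did the integrin subunit Itga1 (0.55 ± 0.13, 0.84 ± 0.13 and 0.87 ± 0.13). Of these 5 genes the gain block ended the valsartan calls of P4ha1 (-0.55, adjusted p = 0.284), Colgalt1 (-0.80, adjusted p = 0.0713), Itgb1 (-0.62, adjusted p = 0.327) and P3h1 (0.35, adjusted p = 0.399), and the high-dose call of Itga1 (0.45, adjusted p = 0.0705). Within the families of P4ha1 and P3h1 the direction was mixed. P4ha2 was called higher with high-dose SXC and valsartan (0.49 ± 0.18 and 0.62 ± 0.18, SE), and P4ha3 with high-dose SXC (0.79 ± 0.33). P3h3 was called lower with high-dose SXC and valsartan (-0.63 ± 0.19 and -1.06 ± 0.19). P3h2 and P3h4 were not called against saline. With gain as a block none of these calls of P4ha2, P4ha3 and P3h3 was kept.

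Pcolce, which speeds the removal of the C-terminal propeptide of fibrillar procollagens, fell with high-dose SXC and valsartan (-0.59 ± 0.22 and -0.69 ± 0.22, SE). Its low-dose change was -0.20 ± 0.22. Bmp1 and Tll1, which cut procollagens, went the other way and were called higher at both doses and with valsartan. For high dose, low dose and valsartan, Bmp1 changed by 0.30 ± 0.10, 0.33 ± 0.10 and 0.33 ± 0.10 (SE). Tll1 changed by 1.21 ± 0.27, 0.96 ± 0.26 and 0.85 ± 0.26. Pcolce, Bmp1 and Tll1 were chosen after their values were seen. Itga10, the alpha subunit of a collagen receptor known from cartilage, had levels of -5.19 to -3.76 on saline arrays, -4.67 to -2.84 on low-dose arrays, -3.18 to 0.78 on high-dose arrays and -1.92 to 0.20 on valsartan arrays. The 2 high-dose arrays at the higher gain were the lowest of their group, at -3.18 and -2.47, as they were for Col2a1. Itga10 rose with high-dose SXC (3.66 ± 0.51, adjusted p = 1.16e-06) and valsartan (3.68 ± 0.51, adjusted p = 1.06e-06), and under the gain block the changes were 1.68 (adjusted p = 0.0184) and 0.71 (adjusted p = 0.553). That block also ended both calls of Pcolce (-0.60, adjusted p = 0.17, and -0.71, adjusted p = 0.28). For Bmp1 and Tll1 it ended the high-dose and valsartan calls and kept the low-dose ones. Between treated groups 1 gene of the list was called higher in high-dose against low-dose SXC, 1 higher and 2 lower in valsartan against low-dose SXC, and 0 by limma in valsartan against high-dose SXC (6 at an unadjusted p under 0.05).

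**Figure D5:**
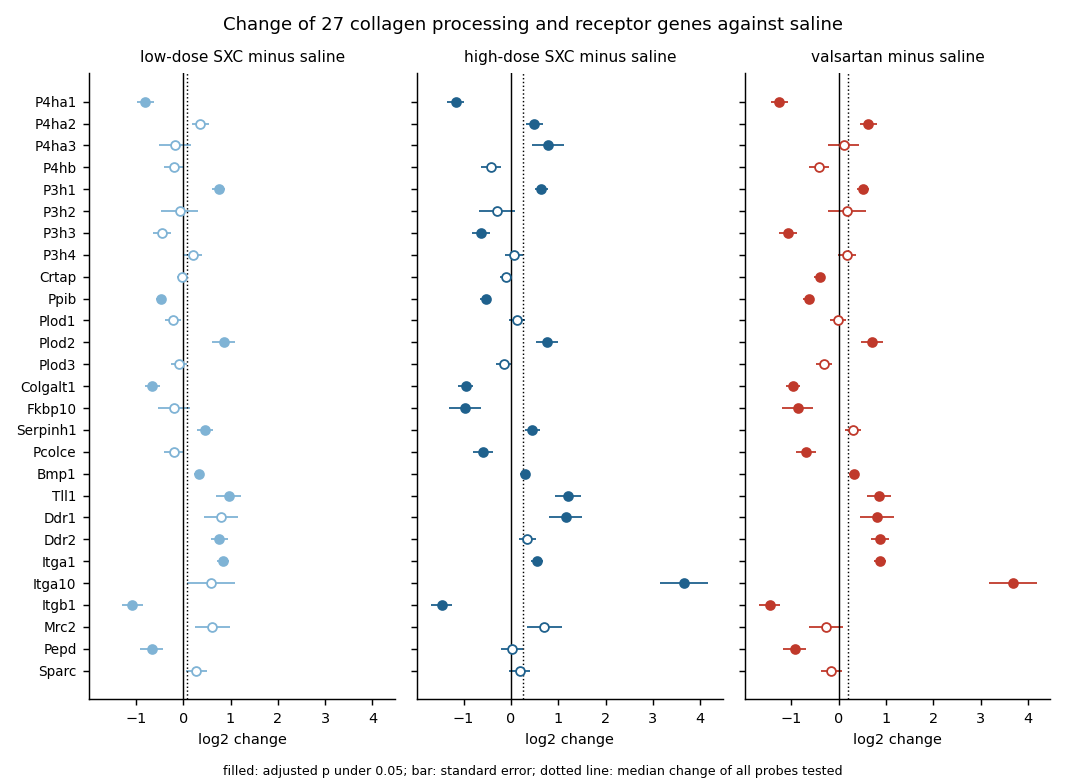
Log2 change of 27 collagen processing and receptor genes against saline in 3 panels for low-dose SXC, high-dose SXC and valsartan, with standard errors, filled where the adjusted p was under 0.05. P4ha1, Colgalt1 and Itgb1 lie below 0 and P3h1 and Itga1 above 0 in all 3 panels, and Itga10 reaches 3.66 and 3.68 in the high-dose and valsartan panels.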

How the data were processed

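Aortic RNA was labelled with Cy3 and read on 1-colour Agilent arrays, scanned with Agilent Feature Extraction 11.0.1.1, per the file headers. The signal intensity of each spot in the deposited scanner files had been background-corrected by that software, per the file headers, and the deposited flags for spots well above background, saturated or outlying come from it too. The authors' deposited value table is on a log2 scale, with its method not stated in the labels or headers, and served as an alternative.

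Control spots and outlier spots were left out, the log2 intensity was scaled by subtracting each array's 75th percentile over spots, and spots of a probe were averaged. On each array a probe was rated well above background where a share of at least 0.5 of its spots was. The 23744 of 30367 probes so rated on at least 6 arrays were fitted over all 4 groups with limma 3.58.1 in R 4.3.3 (trend, 2-sided), with adjusted p under 0.05 as the threshold. Tables were handled with Python 3.11.15 and pandas 2.3.3. Probes were named through accessions in the RefSeq table of GRCr8 (18005 probes with 1 symbol, 12362 with none). In simulated data with independent noise, 200 of 23744 probes were changed in 1 group. There 35% to 38% of 2-fold and 78% to 81% of 4-fold changes against saline were recovered. In the real data 39.6% to 58.4% of probes were called against saline, and arrays shared slides and scan days. These recovery rates therefore do not carry over to the fits reported. Precision is limited by how many arrays there were: over all probes the median SE was 0.30 against saline and 0.33 between treated groups.

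All members are accounted for. The rule for named genes took Col1a1, Col3a1, Col4a1 and Col5a1 in every comparison, the genes whose brightest probe was called, if measured above background in all arrays of whichever group was higher, and up to 4 processing genes per comparison by adjusted p. The members and lists were chosen with earlier results of these data known. Alternatives covered the normalisation, background correction, dim-probe filter, slide, detector gain, scan day, the averaging of probes and of saline arrays, and a replicate block.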

Additional observations from a re-analysis of the deposited data

Results flagged for a closer look

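In 5 of 68 sets of a gene's levels within a group, 1 array stood farther from the rest than the critical value of Dixon's test, and chance gives about 1 in 20. Col4a1 read 5.67 on low-dose array 2, with the other low-dose arrays at 5.55 to 5.59. Col6a2 read 3.73 on low-dose array 4, with the others at 3.61 to 3.63. Col8a1 read -3.36 on high-dose array 3, where it was not well above background, with the others at -2.30 to -2.09. Col8a1 read -0.92 on valsartan array 1, with the others at -3.16 to -2.43. Col13a1 read -3.25 on high-dose array 3, where it was not well above background, with the others at -5.10 to -4.71.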

How the results depend on the processing

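Of 30 called results of the collagen genes that the naming rule took, 17 were also called in the same direction under all 4 other scalings, and 24 were lost with detector gain as a block. The 10 collagen probes called for high-dose SXC against saline became 3 with gain as a block and 6 within the higher gain or with probes averaged per gene. The 5 for low-dose SXC became 3 with normexp, slide as a random block or saline as 3 averages, 2 with the filter of 20 arrays or probes averaged, 8 in the authors' values, and 10 within the higher gain or without saline arrays 3 and 7. The 12 for valsartan became 6 with slide or saline averages and 2 with gain as a block. Over all probes the share called went from 57.1% to 27.4% (gain) and 42.8% (within the higher gain) for high-dose SXC. For low-dose SXC it went from 39.6% to 39.4% (normexp), 29.9% (slide), 24% (saline averages) and 49.2% (filter of 20 arrays). It was 32.4% in the authors' values, 55.2% within the higher gain and 37.6% without saline arrays 3 and 7. For valsartan it went from 58.4% to 45.5% (slide), 41.8% (saline averages) and 13.7% (gain). The gain block and the higher-gain fit both take high-dose SXC from its 2 arrays at the higher gain and are not separate checks.

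The 6 collagen probes called for high-dose against low-dose SXC became 1 after quantile normalisation or with slide, 3 in the authors' values or with saline averages, 12 with normexp and 11 without saline arrays 3 and 7. By limma they became 0 with gain or scan day as a block, within the higher gain and within scan day 1, with 1, 0, 2 and 1 at an unadjusted p under 0.05. Over all probes the share called in this comparison went from 22.2% to 15.4% (quantile), 6.88% (slide), 15.5% (authors' values) and 18.6% (saline averages). It was 45.4% with normexp and 24.2% without saline arrays 3 and 7. In the fits where 0 collagen probes were called it was 0% too. The 7 collagen probes called for valsartan against low-dose SXC became 16 with normexp, 11 without the filter, 2 with slide, and 0 by limma with gain or scan day as a block (0 and 2 at an unadjusted p under 0.05). Over all probes the share went from 25.1% to 61.3% (normexp), 43.6% (no filter), 7.75% (slide) and 0.0126% (gain or scan day). The 1 collagen probe called for valsartan against high-dose SXC became 3 without saline arrays 3 and 7, and 0 by limma with normexp, percentiles over probes, no filter, the filter of 20 arrays, slide, gain, scan day, the lower gain, scan day 3, saline averages, probes averaged or without high-dose arrays 1 and 2 (2 to 5 at an unadjusted p under 0.05 where counted). Over all probes the share went from 1.37% to 2.19% without saline arrays 3 and 7. It was 5.98% with gain, 5.61% without high-dose arrays 1 and 2, 1.68% with scan day and 1.4% with the filter of 20 arrays. In the other fits of probes named here it was at most 0.969%. Processing genes went from 17 to 5 (gain as a block), 6 (within the higher gain) and 11 (saline averages) for high-dose SXC and from 18 to 4 (gain) for valsartan, both against saline. For high-dose against low-dose SXC they went from 1 to 2 (quantile, percentiles over probes, authors' values), 3 (no filter), 4 (without saline arrays 3 and 7), 5 (normexp), 6 (without high-dose arrays 1 and 2) and, by limma, 0 (gain or scan day as a block, the higher gain, scan day 1; 1, 0, 2 and 0 at an unadjusted p under 0.05). For valsartan against low-dose SXC they went from 3 to 9 (normexp), 5 (without saline arrays 3 and 7), 1 (slide) and, by limma, 0 (gain or scan day; 3 and 4 at an unadjusted p under 0.05). For valsartan against high-dose SXC they went from 0 to 1 (quantile, gain, without high-dose arrays 1 and 2). The share of all probes also moved in fits named only for the processing genes. It was 41.2% for high-dose SXC against saline with saline averages. For high-dose against low-dose SXC it was 25.6% (percentiles over probes), 33.8% (no filter) and 35.5% (without high-dose arrays 1 and 2). For valsartan it was 28.1% against low-dose SXC without saline arrays 3 and 7, and 3.05% against high-dose SXC after quantile normalisation. The causes were not tested.

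Signs turned for Col11a2 with normexp (0.63 for valsartan against saline, 0.29 against low-dose SXC), for Col1a2 (0.017 for high-dose against low-dose SXC with gain as a block or within the higher gain, 0.25 and 0.18 for valsartan against low-dose SXC with gain or scan day as a block), for Col9a1 (-0.21 for high-dose against low-dose SXC with scan day as a block or within scan day 1) and for Col2a1 (-0.034 for valsartan against low-dose SXC with scan day as a block). Valsartan and low-dose arrays shared neither gain nor scan day, so both blocks link them only through high-dose arrays. Percentiles over probes, fits within scan days the fit without saline arrays 3 and 7 and, for the processing genes, all settings but quantile, normexp, the authors' values and the replicate block were chosen after the data were seen.

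With a replicate block the counts were 10, 5 and 12 against saline and 5, 9 and 0 between treated groups (5 at an unadjusted p under 0.05 in the last). The shares of all probes were then 52.4%, 34.1% and 53% against saline and 19.7%, 22.8% and 0.455% between treated groups. Samples with the same number did not deviate together: 6 of 36 pairs correlated over 0.1, with a median of -0.02, so the numbers were not taken as pairing.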
